A study of Homo sapiens with 5 samples.

Results

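The genes of 2 cell guidance systems, the semaphorins with their plexin and neuropilin receptors and the ephrins with their Eph receptors, were examined in RPE1 cells treated with doxorubicin. Members were chosen by gene symbol, as SEMA3 to SEMA7 genes, PLXNA to PLXND genes, EPHA and EPHB genes, EFNA and EFNB genes, and NRP1 and NRP2. The symbols matched 53 of the 26485 genes in the count table, and 44 of them had enough reads to be tested. RPE1 is an immortalized human retinal pigment epithelial cell line, labelled here as wild type. All libraries were made from poly-A RNA collected 18 h after the start of treatment, from cells given DMSO as the vehicle control (2 libraries), 0.2 μM doxorubicin (2 libraries) or 0.34 μM doxorubicin (1 library). Doxorubicin is an anthracycline that intercalates into DNA and traps topoisomerase II. The doses are those of the sample labels, while the treatment protocol in the labels gives them in a unit that would make them mM.

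Semaphorins are secreted or membrane-bound ligands, and plexins are the transmembrane receptors that pass their signal to small GTPases and the actin cytoskeleton. Most secreted class 3 semaphorins need a neuropilin as co-receptor, while membrane-bound semaphorins bind plexins directly. Ephrins are ligands held in the membrane, bound by the Eph receptor tyrosine kinases of a neighbouring cell, and in epithelia both systems act on cell contacts, migration and repulsion.

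Doxorubicin libraries held more mRNA of all 3 class B plexins and of the secreted ligand SEMA3B, and these 4 genes were the members that passed the test. PLXNB1 rose 3.63-fold, PLXNB2 2.85-fold, PLXNB3 2.91-fold and SEMA3B 4.25-fold in mean CPM, the normalized counts scaled to a library of fixed size. No member was called lower at the same threshold, although both neuropilins, SEMA3A, EPHA6 and EPHB2 were lower in every doxorubicin library than in either DMSO library. Groups were compared by the quasi-likelihood method of edgeR, the 3 doxorubicin against the 2 DMSO libraries, with a Benjamini-Hochberg adjusted p of 0.01 over all 14187 genes tested as the threshold. The 4 members called higher were 9.09% of the 44 tested, against 1.29% of all genes called higher. Of all genes, 2.73% were called lower. At an adjusted p of 0.05 edgeR called 8 members higher and 3 lower, against 6.1% and 7.48% of all genes. DESeq2 at 0.01 called the same 11 members, against 6.59% of all genes higher and 8.02% lower. Among the higher ones was EPHB6, which had enough reads to be tested only through its doxorubicin libraries. The 3 doxorubicin libraries all lay above the DMSO libraries in 14 members (31.8% of those tested, against 24.3% of all genes) and all below in 5 members (11.4% against 23.4%). Among the 14 were EPHB6 and SEMA4A, which passed the filter on low counts only with their doxorubicin libraries. The groups overlapped in the other 25 members. The median log2 fold change was 0.18 over the 44 members and 0.01 over all genes. In such bulk libraries, fewer cells of a type and less RNA per cell cannot be told apart.

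**Figure D1:**
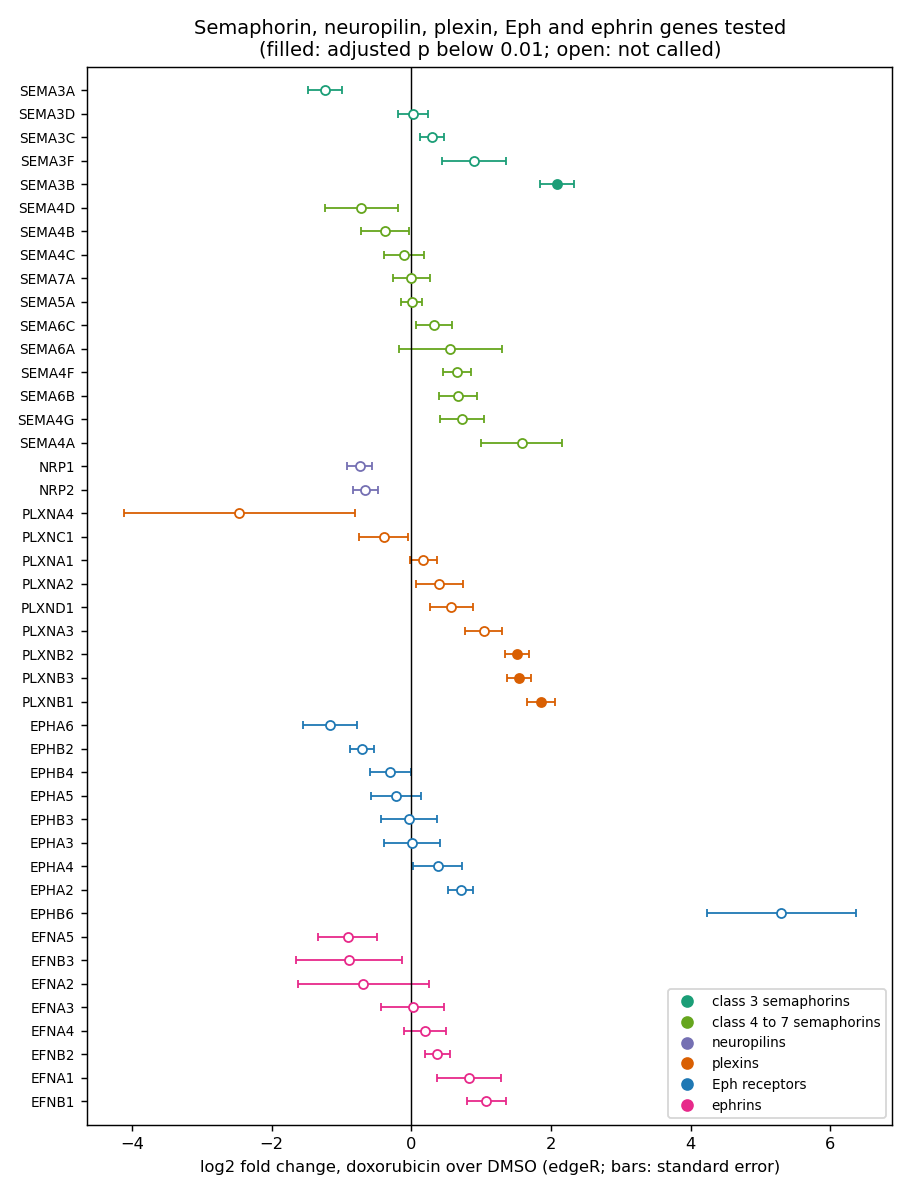
Log2 fold change of each of the 44 tested members, doxorubicin over DMSO, with its standard error from edgeR, grouped by family. Filled points mark the 4 genes called at an adjusted p of 0.01, which are SEMA3B and the 3 class B plexins, and EPHB6 at 5.30 rests on a DMSO total of 1 count.

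The count table held between 23773061 and 36725345 counts per library. The members together took 0.294% and 0.364% of the counts in DMSO, 0.399% and 0.382% at 0.2 μM and 0.411% at 0.34 μM. The defining genes of differentiated pigment epithelium RPE65, RLBP1, TYR and TYRP1 had between 0 and 8 counts in each library, BEST1 had 26 and 14 in DMSO and 30 to 142 in doxorubicin, and PMEL had 7 and 5 in DMSO and 22 to 46 in doxorubicin. The pigment epithelium transcription factors MITF and OTX2 had between 601 and 1503. The study's methods call the libraries biological replicates and the labels do not name the cultures, and the p-values measure only the spread between these 5 libraries.

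The upstream sequences of SEMA3B and PLXNB3 are shown because these are the called genes for which the stretch shown lies wholly before the annotated gene. Each is the 120 bases before the start furthest upstream, on the plus strand of GRCh38.p14, at chr3:50260106-50260225 and chrX:153764129-153764248. Capitals mark GC boxes, the letters GGGCGG or their complement CCGCCC, the kind of site bound by Sp1-type factors.
SEMA3B: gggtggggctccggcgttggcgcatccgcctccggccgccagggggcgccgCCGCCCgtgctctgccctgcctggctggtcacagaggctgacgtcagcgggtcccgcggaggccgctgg
PLXNB3: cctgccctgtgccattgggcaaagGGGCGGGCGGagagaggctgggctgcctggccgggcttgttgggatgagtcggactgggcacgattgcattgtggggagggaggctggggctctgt
The SEMA3B stretch was 79.2% G and C with 1 GC box, and the PLXNB3 stretch was 67.5% with 2 GC boxes that share bases. Over all 35116 RefSeq windows the same 120 bases held a GC box in 34% and had a median G and C content of 60%. The p53 response element, meaning 2 copies of the p53 decamer at most 13 bases apart, was searched in windows from 250 bases before to 50 after each start. It occurred in 0 of 74 windows of the 47 members with a RefSeq window, against 0.0285% of all windows. At a share that low a match in 74 windows was unlikely from the start, so the 0 says nothing about p53 sites in the members. A single p53 decamer was found in 3 of the 74 windows, of SEMA3F, SEMA4G and SEMA5B, and in 6.63% of all windows. The cell cycle homology region, TTTGAA or TTCGAA on either strand, was found in 7 of the 74 windows, of PLXNA1, SEMA3B, SEMA3F, SEMA4B and SEMA5B, and in 16.4% of all windows. These matches describe letters in the windows and not binding.

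Among the secreted class 3 semaphorins, 5 of 7 genes were tested, with 1 called higher and a median log2 fold change of 0.30. SEMA3B (chr3:50260226-50277546, GRCh38) encodes a ligand known as a growth-restraining factor in epithelial tumours and described as a p53 target gene. It had 17.5 and 26.4 CPM in DMSO, 76.3 and 102 CPM at 0.2 μM and 102 CPM at 0.34 μM. The lowest doxorubicin library was thus well above both DMSO libraries, and the 0.34 μM library stood level with the second 0.2 μM library. The log2 fold change was 2.09 ± 0.25 (SE) with an edgeR adjusted p of 0.00394. SEMA3B overlaps the annotated antisense gene SEMA3B-AS1, and the strand setting of the authors' counting is not given, so the reads of this pair may not be separated. This limit is wider, since 28 of the members tested overlap another annotated gene. Among them are PLXNA3 with LAGE3 and SEMA4G with MRPL43.

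SEMA3A, which binds NRP1 and collapses growth cones, had lower levels in doxorubicin. It had 67.1 and 90.5 CPM in DMSO, 34 and 41.3 CPM at 0.2 μM and 25.0 CPM at 0.34 μM. All doxorubicin libraries were below both DMSO libraries, and the log2 fold change was -1.24 ± 0.24 with an edgeR adjusted p of 0.0219, so it was not called, while DESeq2 gave an adjusted p of 0.000122. By CPM per kilobase within each library, SEMA3B was at 0.665 and 0.743 times SEMA3A in DMSO, 5.71 and 6.31 times at 0.2 μM and 10.4 times at 0.34 μM. The order of these ligands by level per length was therefore opposite in the DMSO and the doxorubicin libraries.

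SEMA3C, a ligand of both neuropilins, and SEMA3F, which prefers NRP2, were the most abundant class 3 members per length of transcript in DMSO. SEMA3C had 53.7 ± 9.48 CPM per kilobase in DMSO (SD, n = 2) and 66.2 ± 4.82 in doxorubicin (n = 3). Its libraries held 294 and 229 CPM in DMSO, 333 and 340 CPM at 0.2 μM and 296 CPM at 0.34 μM, so the groups lay close to each other without overlap, and the log2 fold change was 0.30 with an edgeR adjusted p of 0.289. SEMA3F had 116 and 61.5 CPM in DMSO, 205 and 81.4 CPM at 0.2 μM and 211 CPM at 0.34 μM. The SEMA3F groups overlapped, and the libraries numbered 2 were the lower ones in both replicated groups (log2 fold change 0.90 ± 0.46, edgeR adjusted p 0.238). SEMA3D was near level at 0.03 on the log2 scale. SEMA3E and SEMA3G had at most 20 and 2 counts in a library and were not tested.

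Of the 13 class 4 to 7 semaphorins, 11 were tested and none was called in either direction. Their median log2 fold change was 0.33, with 4 members above DMSO in every doxorubicin library. SEMA7A, the semaphorin held by a lipid anchor, had the highest level per length of this group in DMSO, 38.9 ± 17.0 CPM per kilobase. It had 90.8 and 172 CPM in DMSO, 140 and 124 CPM at 0.2 μM and 130 CPM at 0.34 μM. The doxorubicin libraries all fell between the DMSO libraries, and the log2 fold change was -0.0019 ± 0.26 (edgeR adjusted p 0.997). SEMA4B, the next by level at 12 ± 1.21 CPM per kilobase, had 48.8 and 42.3 CPM in DMSO, 46.0 and 19.7 CPM at 0.2 μM and 39.6 CPM at 0.34 μM. The second 0.2 μM library was the low one, and the groups overlapped (log2 fold change -0.37 ± 0.34, edgeR adjusted p 0.505).

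SEMA4A was near the limit of the counts, with 0.725 and 0.196 CPM in DMSO, 1.24 and 1.62 CPM at 0.2 μM and 1.32 CPM at 0.34 μM. All doxorubicin libraries were above DMSO, but the whole DMSO group held 24 counts and the log2 fold change of 1.58 ± 0.58 had an edgeR adjusted p of 0.119. It was 2.79 without the first DMSO library and 0.92 without the second. With 5 counts in the second DMSO library, SEMA4A passed the filter on low counts only with its doxorubicin libraries. The other members without overlap were SEMA4F at 0.65, SEMA4G at 0.73 and SEMA6B at 0.67 on the log2 scale, with edgeR adjusted p between 0.0814 and 0.171. Of the ligands best known for each class B plexin, none was called. SEMA4D, the classical ligand of PLXNB1, was at most 1.57 CPM in any library with a log2 fold change of -0.71 ± 0.52. SEMA4C, a ligand of PLXNB2, gave -0.11 ± 0.29, and SEMA5A, a ligand of PLXNB3, gave 0.0041 ± 0.15. Their edgeR adjusted p were 0.405, 0.84 and 0.989, and the groups overlapped in all 3.

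Both neuropilins were lower in every doxorubicin library, with a median log2 fold change of -0.70, and neither was called. NRP1, the co-receptor of SEMA3A and of vascular endothelial growth factor, had the highest level per length of all members in DMSO at 148 ± 20.8 CPM per kilobase. It had 754 and 919 CPM in DMSO, 543 and 528 CPM at 0.2 μM and 435 CPM at 0.34 μM. The highest doxorubicin library was below the lowest DMSO library, with a log2 fold change of -0.74 ± 0.18 and an edgeR adjusted p of 0.0411. NRP2, the co-receptor of SEMA3F, had 95.7 and 73.7 CPM in DMSO, 57.1 and 45.4 CPM at 0.2 μM and 58.8 CPM at 0.34 μM. Its groups did not overlap either, and the log2 fold change was -0.66 ± 0.19 (edgeR adjusted p 0.0627). DESeq2 called NRP1 (adjusted p 0.00137) and not NRP2 (0.0162).

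**Figure D2:**
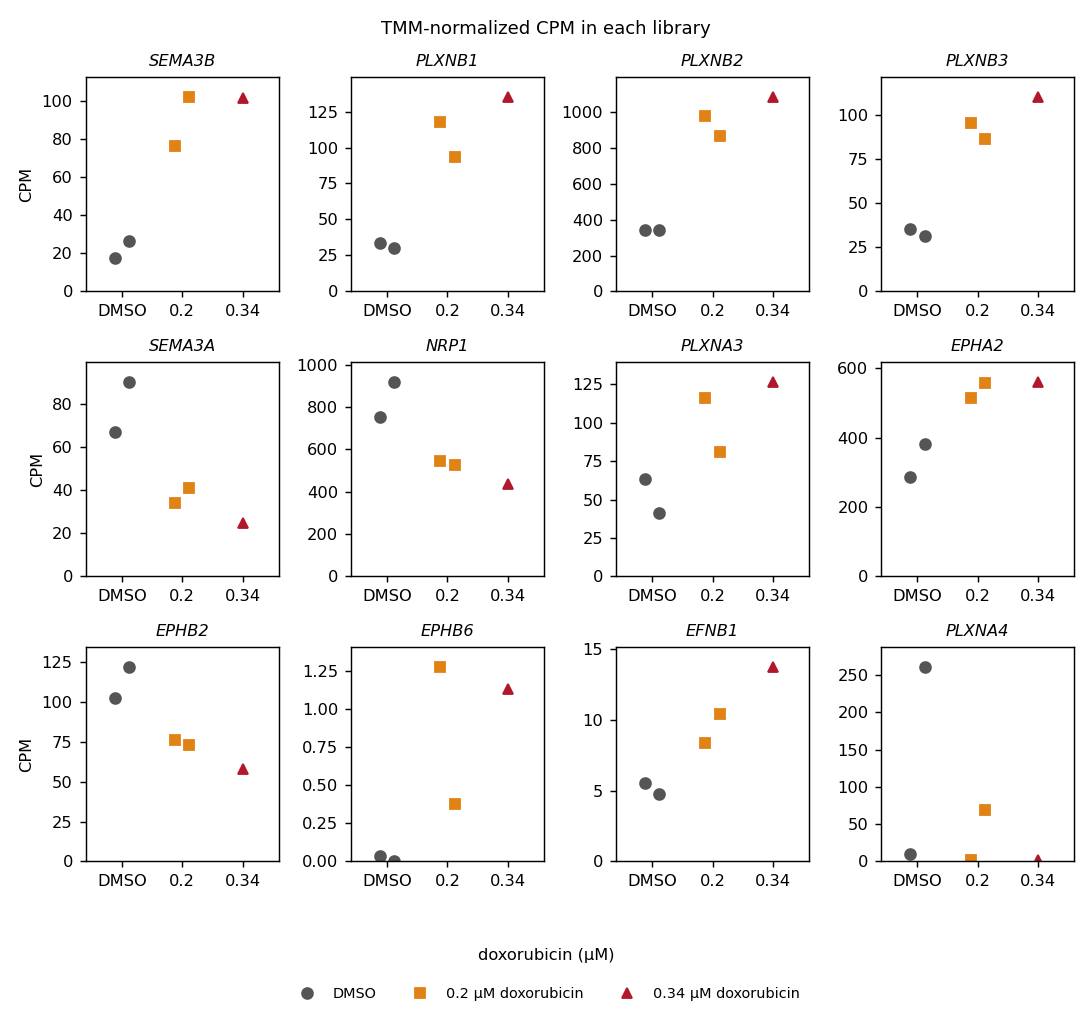
TMM-normalized CPM of 12 members in each library, on linear axes that start at 0, with DMSO as circles, 0.2 μM doxorubicin as squares and 0.34 μM as a triangle. The groups do not overlap for 11 of the genes, and in PLXNA4 the libraries numbered 2 stand far above the others.

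All 9 plexins were tested, and their median log2 fold change was 0.58, with 3 called higher and 0 lower. The 3 called genes are the whole of class B. PLXNB1 and PLXNB2 are known as receptors of class 4 semaphorins, and PLXNB3 as a receptor of SEMA5A. PLXNB2 (chr22:50274979-50307646) was the most abundant plexin per length, with 53.5 ± 0.333 CPM per kilobase in DMSO and 153 ± 17.4 in doxorubicin. It had 341 and 344 CPM in DMSO, 981 and 865 CPM at 0.2 μM and 1088 CPM at 0.34 μM. The DMSO libraries were nearly equal, and each doxorubicin library was far above them. The log2 fold change was 1.51 ± 0.17 with an edgeR adjusted p of 0.00355.

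PLXNB1 (chr3:48403854-48430310), the receptor of SEMA4D, had 33.6 and 30.1 CPM in DMSO, 118 and 93.3 CPM at 0.2 μM and 135 CPM at 0.34 μM. Its log2 fold change was 1.86 ± 0.20 (edgeR adjusted p 0.00313). PLXNB3 (chrX:153764249-153779341), the receptor of SEMA5A, had 35.3 and 31.6 CPM in DMSO, 95.6 and 86.5 CPM at 0.2 μM and 110 CPM at 0.34 μM. Its log2 fold change was 1.54 ± 0.17 (edgeR adjusted p 0.00316). In both genes the lowest doxorubicin library was above the highest DMSO library, and the 0.34 μM library was the highest of all. PLXNB3 overlaps the annotated antisense gene PLXNB3-AS1, while PLXNB1 and PLXNB2 overlap no other annotated gene. PLXNB3 kept close to PLXNB2, at 0.108 and 0.0958 times its level per length in DMSO and 0.102, 0.104 and 0.106 times in doxorubicin.

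The size of these 4 changes held when a library was left out, but the calls did not. Without the first 0.2 μM library only SEMA3B was called (edgeR adjusted p 0.0081), and without the second only PLXNB1 (0.0067). None of the 4 was called without the first DMSO library, without the second or without the 0.34 μM library, where their edgeR adjusted p lay between 0.0104 and 0.0272. Over all genes the number called higher fell from 183 to between 2 and 71 in the same fits. The log2 fold changes stayed between 1.81 and 2.40 for SEMA3B, 1.74 and 1.99 for PLXNB1, 1.44 and 1.60 for PLXNB2 and 1.45 and 1.63 for PLXNB3.

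The class A plexins, which pair with neuropilins, were mixed. PLXNA3 had 63.4 and 41.6 CPM in DMSO, 116 and 81.2 CPM at 0.2 μM and 127 CPM at 0.34 μM. Every doxorubicin library was above both DMSO libraries, and the log2 fold change of 1.04 ± 0.27 had an edgeR adjusted p of 0.0475 and a DESeq2 adjusted p of 0.00252. PLXNA1 had the next highest mean level per length after PLXNB2 in DMSO, at 10.8 ± 2.32 CPM per kilobase, and its order against PLXNA4 at 10.4 ± 13.7 is not settled. It had 85.1 and 116 CPM in DMSO, 117 and 98.4 CPM at 0.2 μM and 124 CPM at 0.34 μM. Those groups overlapped (log2 fold change 0.17 ± 0.19, edgeR adjusted p 0.585). PLXNA2 at 0.40, PLXND1 at 0.58 and PLXNC1 at -0.40 on the log2 scale were not called and had overlapping groups.

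PLXNA4 differed more between libraries of one group than between the group means. It had 9.65 and 261 CPM in DMSO, 2.55 and 69.0 CPM at 0.2 μM and 2.62 CPM at 0.34 μM. The library numbered 2 was 27.0-fold above the other in both replicated groups, and the log2 fold change of -2.46 ± 1.65 had an edgeR adjusted p of 0.363. Without the second DMSO library it turned to 1.32. The endothelial marker CDH5 followed the same libraries, with 56 and 69 counts in those numbered 2 and between 2 and 5 in the others, and so did the neuronal gene SNAP25 with 79 and 61 counts against 25 to 37. These were 1 of 3 endothelial and 1 of 4 neuronal markers, and others on the lists went differently. TEK had 8 and 7 counts in DMSO, 29 and 24 at 0.2 μM and 50 at 0.34 μM. In the same order SYP had 15 and 12, 16 and 8, and 16 counts. PECAM1 had 3 and 6, 7 and 11, and 13 counts, and ELAVL3 had at most 3. The summed endothelial markers were at 0.496 and 2.70 CPM in DMSO and 1.55 to 4.32 CPM in doxorubicin, and the neuronal at 1.83 and 3.60 CPM and 1.46 to 2.99 CPM, with NEFL at 0 counts in every library. The part of other cells in the PLXNA4 values was not tested.

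By level per length, class B plexins made up 70.2% and 56.4% of summed plexin mRNA in DMSO, 81.9% and 81.5% at 0.2 μM and 82.4% at 0.34 μM. The lower DMSO share was that of the second library, where PLXNA4 alone took 18.0%. The plexins together had 90.7 and 112 CPM per kilobase in DMSO, 226 and 199 at 0.2 μM and 251 at 0.34 μM, while the neuropilins together had 148 and 174 in DMSO, 105 and 101 at 0.2 μM and 85.9 at 0.34 μM. In both DMSO libraries the neuropilin sum was above the plexin sum, and in all 3 doxorubicin libraries it was below. The level of PLXNB2 per length was 0.398 and 0.33 times that of NRP1 in DMSO, 1.59 and 1.44 times at 0.2 μM and 2.20 times at 0.34 μM.

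**Figure D3:**
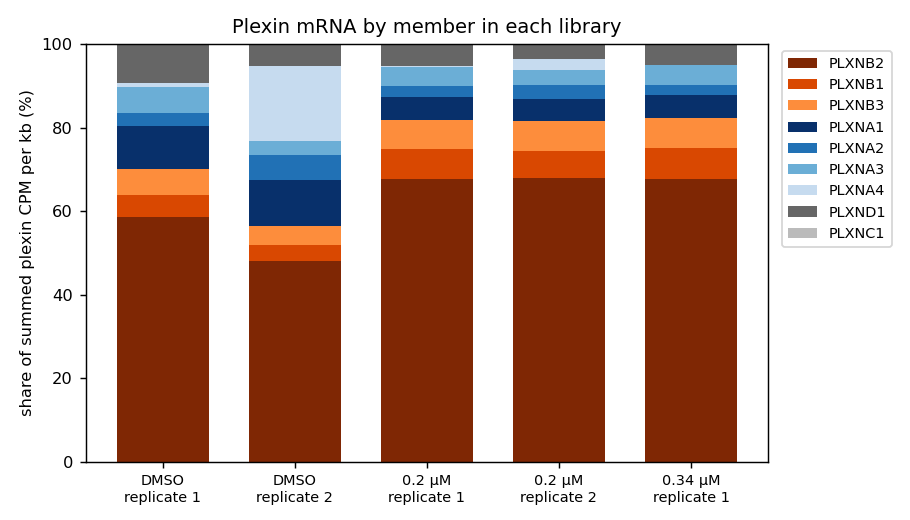
Share of each plexin in the summed plexin CPM per kilobase of transcript, in percent, with 1 bar per library. Class B, in orange and brown, takes 56.4% to 70.2% of the DMSO bars and 81.5% to 82.4% of the doxorubicin bars.

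Of the 14 Eph receptors, 9 were tested and none was called, with a median log2 fold change of -0.03. EPHA2, an epithelial receptor described as a p53 target gene, was the most abundant per length with 84.4 ± 17.2 CPM per kilobase in DMSO and 138 ± 6.48 in doxorubicin. It had 285 and 381 CPM in DMSO, 515 and 558 CPM at 0.2 μM and 561 CPM at 0.34 μM. All doxorubicin libraries were above both DMSO libraries, and the log2 fold change was 0.71 ± 0.18 (edgeR adjusted p 0.0474, DESeq2 adjusted p 0.00286). EPHA2 overlaps the annotated gene EPHA2-AS1. EPHB2, a receptor of B-type ephrins, had 103 and 122 CPM in DMSO, 76.1 and 72.9 CPM at 0.2 μM and 57.9 CPM at 0.34 μM. It was below DMSO in every doxorubicin library, with a log2 fold change of -0.70 ± 0.17 (edgeR adjusted p 0.0428, DESeq2 adjusted p 0.00502). By level per length within each library, EPHA2 was at 7.78 and 8.72 times EPHB2 in DMSO, 18.9 and 21.4 times at 0.2 μM and 27.1 times at 0.34 μM.

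EPHB4, the receptor of EFNB2 and next to EPHA2 in level at 17.4 ± 0.0307 CPM per kilobase in DMSO, had 75.8 and 76.0 CPM in DMSO, 76.5 and 38.0 CPM at 0.2 μM and 70.4 CPM at 0.34 μM. The second 0.2 μM library was low and the first was level with DMSO (log2 fold change -0.30 ± 0.29, edgeR adjusted p 0.533). EPHB6, an Eph receptor without kinase activity, had 1 and 0 counts in DMSO, 33 and 9 counts at 0.2 μM and 41 counts at 0.34 μM. The doxorubicin libraries were all above DMSO, with a ratio of 49.8 after scaling to library size and a 95% counting interval from 8.7 to 1990. EdgeR gave it an adjusted p of 0.0231 and DESeq2 0.00702, and the fitted log2 value of 5.30 ± 1.07 depends on the handling of a count near 0. EPHB6 passed the filter on low counts only through its doxorubicin libraries, so it could enter the test only as a higher gene. With a library left out it was tested in only 3 of the fits. EPHA6 was low throughout, with 1.56 and 2.08 CPM in DMSO, 0.619 and 1.04 CPM at 0.2 μM and 0.772 CPM at 0.34 μM. Its groups did not overlap (log2 fold change -1.17 ± 0.39, edgeR adjusted p 0.0932). EPHA3, EPHA4, EPHA5 and EPHB3 had overlapping groups and log2 fold changes between -0.22 and 0.38.

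All 8 ephrins were tested and none was called, with a median log2 fold change of 0.11. EFNB1, a transmembrane ligand of EphB receptors, had 5.53 and 4.78 CPM in DMSO, 8.39 and 10.4 CPM at 0.2 μM and 13.8 CPM at 0.34 μM. It was above DMSO in every doxorubicin library, with a log2 fold change of 1.08 ± 0.28 (edgeR adjusted p 0.0494, DESeq2 adjusted p 0.00548). EFNB2, the most abundant ephrin per length at 9.70 ± 2.36 CPM per kilobase in DMSO, had 56.8 and 40.1 CPM in DMSO, 60.3 and 63.8 CPM at 0.2 μM and 64.4 CPM at 0.34 μM. Its groups lay close together without overlap (log2 fold change 0.38 ± 0.18, edgeR adjusted p 0.222). EFNB3 had the next highest mean in DMSO, 6.52 ± 5.46 CPM per kilobase, carried by the first library, since EFNA4 was above it in the second. It had 33.4 and 8.54 CPM in DMSO, 17.8 and 3.08 CPM at 0.2 μM and 13 CPM at 0.34 μM. The libraries numbered 2 were the lowest in both groups, and the log2 fold change was -0.89 ± 0.76 (edgeR adjusted p 0.479). The lipid-anchored EFNA1 to EFNA5 all had overlapping groups and log2 fold changes between -0.91 and 0.83.

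By mean level per length over all members, NRP1 stood first in DMSO, followed by EPHA2 (84.4 ± 17.2 CPM per kilobase), SEMA3C (53.7 ± 9.48), PLXNB2 (53.5 ± 0.333) and SEMA7A (38.9 ± 17.0). The SDs of SEMA3C, PLXNB2 and SEMA7A overlap, so their order is not settled by these libraries, although PLXNB2 was above SEMA7A in both. In doxorubicin PLXNB2 stood first at 153 ± 17.4, followed by EPHA2 at 138 ± 6.48, NRP1 at 89.0 ± 10.4, SEMA3C at 66.2 ± 4.82 and SEMA3F at 46.0 ± 20.3. The SDs of PLXNB2 and EPHA2 overlap there as well, as do those of SEMA3F and SEMA7A (38.8 ± 2.47), whose order is not settled. Those of SEMA3C and SEMA3F also overlap. Within each doxorubicin library, however, SEMA3C was above SEMA3F. Their shares of the class 3 sum were 43.8% against 36.6% and 52.3% against 17% at 0.2 μM, and 38.6% against 37.2% at 0.34 μM.

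The remaining 9 members were too low to test. SEMA6D and EPHA8 had 0 counts in every library, which allows up to 0.0827 to 0.125 CPM in a library by the limit of 3 counts that a count of 0 permits. SEMA3G, SEMA5B, EPHA1, EPHA7 and EPHA10 had between 0 and 7 counts in a library, EPHB1 between 2 and 9 and SEMA3E between 2 and 20. Differences in these genes were not detectable at this depth.

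The 0.34 μM library was set against the pair at 0.2 μM within 1 model of all 3 conditions, where the lone library was assumed to vary like the others. No gene differed by edgeR at an adjusted p of 0.01 (0% of genes), while 22 genes and 0 members had an unadjusted p under 0.05. DESeq2 also gave 0 genes at 0.01, with 26 genes and 0 members at an unadjusted p under 0.05. The smallest unadjusted p among members was 0.102 by edgeR. The log2 differences of 0.34 over 0.2 μM were 0.36 ± 0.27 (SE) for PLXNB1, 0.24 ± 0.28 for PLXNB2, 0.28 ± 0.25 for PLXNB3, 0.19 ± 0.34 for SEMA3B, -0.59 ± 0.31 for SEMA3A, -0.30 ± 0.29 for NRP1 and 0.20 ± 0.29 for NRP2. NRP2 was nearer to DMSO at 0.34 than at 0.2 μM and the others were further from it, and none of these differences passed the test. Across 14187 genes, which are not independent, the log2 values at 0.34 μM minus the 0.2 μM mean had a correlation of 0.706 with those of the first minus the second 0.2 μM library. With 1 library, dose and such library differences cannot be told apart. The genes with an unadjusted p under 0.05 were also far below the share of 0.05 that arises where nothing differs. This contrast could therefore hardly call a member. When the doses were tested apart against DMSO, no member was called at either, and the edgeR adjusted p of the 4 genes lay between 0.0104 and 0.0195 for 0.2 μM and between 0.0116 and 0.0273 for 0.34 μM.

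Genes that act beside the members were taken from 4 lists of 111 genes, of which 110 were in the table and 87 were tested. None was called higher and 1 lower at an edgeR adjusted p of 0.01, against 1.29% and 2.73% of all genes. At 0.05, 11 were higher and 6 lower, against 6.1% and 7.48%. Among the 11 were PGF, UNC5B and DRAXIN, which passed the filter on low counts only with their doxorubicin libraries. CHN1, a chimaerin that inactivates Rac downstream of EPHA4, fell from 20.6 and 24.0 CPM in DMSO to 9.78 and 10.1 CPM at 0.2 μM and 9.31 CPM at 0.34 μM. Its log2 fold change was -1.20 ± 0.17 with an edgeR adjusted p of 0.00798, and it was not called when any 1 library was left out (adjusted p 0.0168 to 0.0616).

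The semaphorin-plexin transducers had 32 genes tested, 0 called and a median log2 fold change of -0.05. RND3, a small GTPase of the plexin-binding Rnd group, had 91.0 and 58.1 CPM in DMSO, 148 and 178 CPM at 0.2 μM and 205 CPM at 0.34 μM, with a log2 fold change of 1.25 ± 0.25 (edgeR adjusted p 0.0219). LIMK2, a kinase of the actin-severing protein cofilin, gave 1.08 ± 0.23 (edgeR adjusted p 0.0261). DPYSL4, of the collapsin response mediators, gave 3.26 ± 1.12, but its libraries numbered 2 were higher in both groups, at 8.89 against 0.992 CPM in DMSO and 97.4 against 14.2 CPM at 0.2 μM (edgeR adjusted p 0.103). The DPYSL4 value was 2.39 without the first DMSO library, 5.54 without the second and 2.19 without the second 0.2 μM library. In all 3 genes the doxorubicin libraries were above the DMSO libraries. These 3 had the largest absolute log2 fold changes on the list among genes without overlap. Of the 32 tested, 7 were above DMSO in every doxorubicin library and 14 below, against 24.3% and 23.4% of all genes. At an edgeR adjusted p of 0.05, 3 were higher and 2 lower, against 6.1% and 7.48% of all genes. The lower ones were FARP1 at -0.67 and FARP2 at -0.81 on the log2 scale (edgeR adjusted p 0.0269 and 0.0326).

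The Eph-ephrin transducers had 30 genes tested, 1 called lower (CHN1) and a median of -0.12. GRB7, an adaptor that binds receptor kinases, gave 1.51 ± 0.34, PICK1, a scaffold that binds the ephrin tail, gave 1.02 ± 0.18 and the phosphatase INPPL1, which binds EPHA2, gave 0.94 ± 0.15 on the log2 scale. Their edgeR adjusted p were 0.0326, 0.0161 and 0.0122. The doxorubicin libraries lay above DMSO in each. RASA1 lay below DMSO in every doxorubicin library and gave -0.74 ± 0.14 (edgeR adjusted p 0.0169). At 0.05 this list had 3 genes higher and 2 lower, against 6.1% and 7.48% of all genes.

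The other guidance ligands and receptors had 16 genes tested, 0 called and a median of 0.38. FLRT2, a membrane ligand of UNC5 receptors, had 1.03 and 2.43 CPM in DMSO, 7.08 and 36.9 CPM at 0.2 μM and 14.9 CPM at 0.34 μM, with a log2 fold change of 3.50 ± 0.80 (edgeR adjusted p 0.0343), which was 2.67 without the second 0.2 μM library and 4.22 without the second DMSO library. The netrin receptor UNC5B gave 2.64 ± 0.54 and the secreted DRAXIN 2.29 ± 0.46, both from DMSO levels under 1 CPM. Their edgeR adjusted p were 0.0245 and 0.0225. UNC5B had 16 and 5 counts in DMSO and DRAXIN 9 and 14. Both thus passed the filter on low counts only with their doxorubicin libraries. DRAXIN also overlaps the annotated gene MAD2L2. UNC5B gave 3.66 without the first DMSO library and 2.03 without the second. The list of growth factors that bind neuropilins, with their receptors, had 9 genes tested, 0 called and a median of 0.14. PDGFA gave 1.88 ± 0.34 and its receptor gene PDGFRA -1.07 ± 0.27 (edgeR adjusted p 0.0167 and 0.0465). VEGFC gave -0.90 ± 0.18 (edgeR adjusted p 0.0212), with all doxorubicin libraries below DMSO. At 0.05 this list had 2 genes higher and 2 lower, against 6.1% and 7.48% of all genes. PGF, a placental growth factor, had 3 counts in the DMSO group and 122 in doxorubicin, a ratio of 24.4 with a 95% counting interval from 8.16 to 120. That interval leaves out the spread between the doxorubicin libraries, which had 0.696 and 1.87 CPM at 0.2 μM and 1.63 CPM at 0.34 μM. PGF passed the filter on low counts only through these libraries, so it could enter the test only as a higher gene. It was not called (edgeR adjusted p 0.0284).

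**Figure D4:**
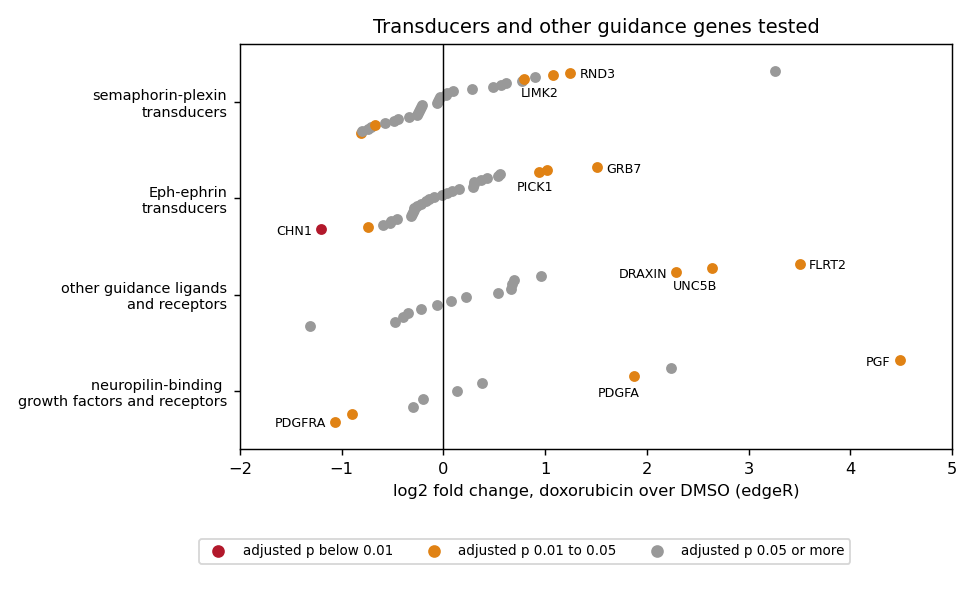
Log2 fold change, doxorubicin over DMSO, of the 87 tested genes of the 4 lists, with 1 row of points per list ordered by value. CHN1, in red, is the gene called at an adjusted p of 0.01, and orange points have an adjusted p between 0.01 and 0.05.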

How the data were processed

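The authors deposited counts of reads per gene, made from 75-base paired-end reads of poly-A RNA mapped to hg38 with STAR and counted with featureCounts. For versions and the strand setting, nothing was given in the sources used here. A deposited table of the authors' own DESeq2 comparison (fold changes, p-values) was not used. The tests ran under R 4.3.3, mainly by edgeR 4.0.16 (TMM, quasi-likelihood test, 3 doxorubicin against 2 DMSO libraries, minimum count of 10 and minimum total of 15), with DESeq2 1.42.0 and limma 3.58.1 as alternatives. Standard errors are the absolute log2 fold change over the square root of F. Levels per length used GENCODE transcript lengths, and positions and promoters are RefSeq GRCh38.p14. The pipeline was tested on simulated data. Genes given values in every library were those called, those on which edgeR and DESeq2 differ, those without overlap and at least 1 log2 unit apart, the 2 most abundant per family, and those near 0 in one group. The members and lists were chosen with earlier results of these data known. Counting intervals cover counting error only.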

Additional observations from a re-analysis of the deposited data

How the results depend on the processing

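Calls depended on the tool and threshold more than fold changes did. The members called higher numbered 4 in edgeR, 8 with DESeq2, 8 at an adjusted p of 0.05, and 0 for 0.2 μM or for 0.34 μM alone against DMSO. They numbered 0 to 1 with a library left out. The members called lower numbered 3 with DESeq2, 3 at 0.05 and 1 without the filter on low counts, against 0. Calls over all genes moved too. The main fit called 183 higher and 388 lower of 14187 genes, DESeq2 935 and 1138, and the threshold of 0.05 866 and 1061. Without the filter 404 and 616 of 20717 genes were called, and for 0.2 μM alone 38 and 140 of 13891. Pathway genes called higher numbered 12 with DESeq2, 8 without the filter and 11 at 0.05, against 0, and those called lower 7 with DESeq2, 6 at 0.05 and 0 for either dose alone or with any library left out, against 1. The members' median log2 fold change was 0.38 without the filter, where that of all genes was 0.15, and 0.078 to 0.374 with a library left out. The cause was not tested.

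The direction of SEMA7A, near 0, turned with limma voom (0.069), 0.2 μM alone (0.0080), thinned counts (0.0038) and the replicate block (0.079). With a library left out it ran from -0.40 to 0.51, PLXNA1 from -0.038 to 0.395, PLXNA4 from -5.70 to 1.32 and EFNB3 from -1.57 to 0.40.

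The labels number only the second library of DMSO and of 0.2 μM, and nothing says the numbers mark shared cultures. The differences between first and second libraries correlated at 0.496 over 14187 genes (0.82 over 44 members) in the 2 groups. With a replicate block on DMSO against 0.2 μM, chosen after seeing the data, edgeR called 5 members higher and 3 lower (SEMA3A, PLXNA4, EFNB3) and 11 pathway genes higher and 2 lower, beside 580 and 669 of all 13891 genes. PLXNA4 stood at -1.92 there (adjusted p 8.33e-06). The single 0.34 μM library and the depth of genes under 1 CPM limit what could be detected.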

Other observations

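Over the 44 tested members, 5 differed by more than 1 log2 unit between the DMSO libraries and 8 between the 0.2 μM libraries (log2 of CPM plus 0.5). The 3 that did so in both, PLXNA4, EFNB3 and EFNA2, differed in the same direction each time. EFNA2, a lipid-anchored ligand of EphA receptors, was 4.42-fold lower in the second than in the first DMSO library. In the 0.2 μM libraries it was 13-fold lower in the second, a size that rests on 3 counts against 42. EFNB3 was lower by 3.91-fold and 5.79-fold in the same pairs. The median absolute log2 difference over members was 0.44 between the DMSO libraries and 0.44 between the 0.2 μM libraries.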
